A study of Mus musculus with 150 samples.

Results

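The 9 genes described here encode keratins and 2 integrin chains that anchor epithelial cells. They are Krt8, Krt18, Krt7 and Krt19, the keratins of simple (single-layered) epithelium, Krt5, Krt14 and Krt15, keratins associated with basal cells, and Itgb4 and Itga6, the integrin chains β4 and α6. They were taken by name, as all 9 of 9 listed genes, from a bulk table of 24341 rows and from 2 single-cell tables that share 31175 gene rows. The samples are mouse lung epithelial cells labelled p53 knockout or wild type, and the design text asks how progenitor cells behave with and without p53. The bulk set held 3 p53 knockout libraries (replicates 7, 8 and 10) and 3 wild-type libraries (replicates 1, 5 and 6). All bulk column names but that of wild-type replicate 6 carry the prefix "second", and any effect of this was not tested. All bulk mice were 8 to 12 weeks old and carried Scgb1a1-CreERTM, a tamoxifen-activated Cre driven from the promoter of a club cell secretory protein, together with the Rosa26-mT/mG reporter. The knockout mice were p53flox/flox, so that p53 is deleted only in cells in which Cre acted, and the wild-type mice were p53+/+. The sort kept live GFP+ cells with EpCAM on their surface and without the endothelial and blood markers CD31, CD34 and CD45. The bulk titles name day 30, whereas the protocol names 70 days after tamoxifen. The single cells came from 1 Fluidigm C1 chip per genotype, labelled p53-/- or wild type, with tamoxifen at 250 mg/kg in the labels' protocol for RNA sequencing. Of these, 61 cells labelled knockout and 66 wild-type cells with at least 1000 detected genes (TPM of at least 1) were kept. The labels' protocols also describe cultured cells, p53-/- mice and floxed mice, and do not say which gave the captured cells.

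Keratins form intermediate filaments from pairs of 1 type I and 1 type II chain. Krt8 (type II) pairs with Krt18 (type I) in simple epithelia such as the airway and alveolar lining, Krt7 and Krt19 are further simple keratins of secretory and ductal cells, and Krt5 pairs with Krt14 in basal cells, the stem cells of the tracheal lining. Integrin α6β4 is the laminin receptor of hemidesmosomes, the junctions that tie keratin filaments of a cell to the basement membrane, and antibodies to both chains are widely used to sort lung epithelial progenitors.

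The genes sit in a few clusters of the mouse genome (GRCm38, GENCODE annotation). The type II genes Krt7 (chr15:101411043-101430313), Krt5 (chr15:101707070-101712898) and Krt8 (chr15:101996698-102004482) share chromosome 15 with the type I gene Krt18 (chr15:102028180-102032027), which lies 23.7 kb from Krt8. The other type I genes are on chromosome 11, at chr11:100131758-100135928 for Krt15, chr11:100140810-100148665 for Krt19 and chr11:100203162-100207548 for Krt14. Itgb4 is at chr11:115974709-116008412 and Itga6 at chr2:71745616-71858416. The bulk table lists Itga6 over a locus of 514.6 kb that spans 6 protein-coding genes, and Itgb4 over one of 38 kb that also holds Galk1, so the FPKM values of both are uncertain. The annotation holds 1 processed pseudogene of Krt8, Krt8-ps on chromosome 7, and reads shared with it cannot be told apart here. Noncoding genes on the opposite strand overlap Krt7, Krt8, Krt5, Itgb4 and Itga6, and the labels do not state counting by strand.

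RefSeq promoter windows (GRCm38.p6) were matched for 5 of the 9 genes. The windows of Krt8, Krt18 and Krt7 are shown because these 3 genes on chromosome 15 were all highly expressed. Each runs 5′ to 3′ on the gene's strand from 200 bases before to 20 bases after the annotated start, with matches on either strand in capitals. The motifs searched were the TATA box TATAAA, the CCAAT box, the GC box GGGCGG, the AP-1 motif TGANTCA and the p53 half-site. They are chr15:102004323-102004542 on the minus strand for Krt8, chr15:102028016-102028235 on the plus strand for Krt18 and chr15:101412203-101412422 on the plus strand for Krt7.
Krt8: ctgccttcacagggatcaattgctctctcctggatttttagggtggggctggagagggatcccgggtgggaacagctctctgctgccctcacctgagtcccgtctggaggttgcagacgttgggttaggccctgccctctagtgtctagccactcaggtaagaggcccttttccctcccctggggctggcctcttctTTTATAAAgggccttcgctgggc
Krt18: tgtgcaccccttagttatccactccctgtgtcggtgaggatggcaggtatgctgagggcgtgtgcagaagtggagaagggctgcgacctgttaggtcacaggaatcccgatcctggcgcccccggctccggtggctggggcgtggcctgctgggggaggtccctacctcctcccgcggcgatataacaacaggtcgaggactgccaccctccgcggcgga
Krt7: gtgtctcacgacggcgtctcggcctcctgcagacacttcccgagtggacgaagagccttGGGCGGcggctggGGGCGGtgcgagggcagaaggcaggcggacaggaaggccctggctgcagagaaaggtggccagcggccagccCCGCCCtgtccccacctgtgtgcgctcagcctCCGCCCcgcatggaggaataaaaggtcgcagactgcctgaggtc
The Krt8 window held 2 overlapping matches to TATAAA, 1 on each strand, at the annotated start, a motif found in 10.5% of 32851 promoter windows of this length. The Krt7 window held 4 matches to GGGCGG, a motif found in 32.6% of windows. The Krt18 window held none of the motifs searched. A p53 half-site match occurred in 6.06% of windows and in none of these 3, while the Krt5 window held 1. CCAAT was in 31% of windows and TGANTCA in 5.96%, and neither was in the windows of Krt8, Krt18 or Krt7. These matches are descriptions of letters only.

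In the bulk libraries Trp53, the targeted gene, had 8.63, 9.98 and 7.56 FPKM in knockout libraries and 16.6, 22.2 and 21.7 FPKM in wild-type libraries. The genotypes did not overlap, and the log2 fold change (knockout minus wild type, on the log2(FPKM + 1) scale, here and below) was -1.12 with a limma adjusted p of 0.144. Without wild-type replicate 1, described below, the Trp53 log2 fold change was -1.25 (limma adjusted p = 0.00992). Summed FPKM over unmarked genes ranged from 485641 to 550245 in knockout and from 424751 to 581094 in wild-type libraries, and read depth is unknown from FPKM. Wild-type replicate 1 stood apart from the other 5 libraries. Its summed FPKM over the 14 club cell markers in the table was 32778, against 62664 to 77139 in knockout libraries and 79933 and 78964 in wild-type replicates 5 and 6. Over 11 alveolar type 2 markers it had 15529, against 8152 to 8860 in knockout libraries and 9467 and 10077 in the other wild-type libraries. The fold changes of the keratin and integrin genes tested in bulk are therefore also given without it. In the single cells Trp53 went against the labels: it was detected in 16 of 61 cells labelled knockout and in 4 of 66 wild-type cells, so directions there are between cells by label only.

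In bulk, the simple keratins were among the strongly expressed genes and the basal keratins Krt5 and Krt14 were close to the lowest listed value. Krt8 had a higher level in each knockout library than in any wild-type library, and so had Itgb4, but neither passed the threshold over all genes. Of the 9 genes, 7 reached 1 FPKM or more in 3 or more of the libraries, as the filter required, and Krt5 and Krt14 did not. By limma 0 of these 7 passed an adjusted p of 0.05, where 0.00836% of the 11957 tested genes did. At an unadjusted p under 0.05, 2 were higher and 0 lower in knockout, where 842 and 724 of all 11957 tested genes were. The same 842 and 724 genes stand beside the unadjusted counts of the other lists below. The genotypes did not overlap, with knockout higher, for 2 of the 7, against 9.04% of all tested genes, and with knockout lower for 0 of the 7, against 10.2%. Of the 7, 6 had a positive fold change, against 51.5% of all tested genes, and the median was 0.37, against 0.01 over all tested genes. Without wild-type replicate 1 the median of the 7 was 0.16, with 5 positive and 0 called, while 2.92% of all tested genes were then called higher. With library weights estimated by limma from these same libraries, 2 of the 7 (Itgb4 and Krt8) were called, where 5.47% of tested genes were called higher.

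**Figure D1:**
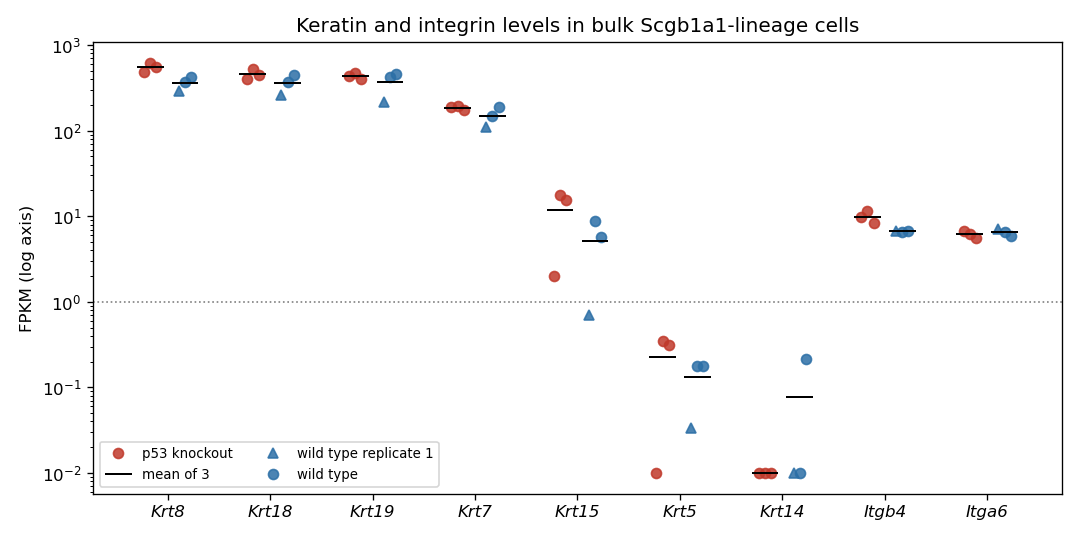
FPKM (log axis) of the 9 genes in each bulk library, knockout left and wild type right, with bars at the mean of 3 libraries and a dotted line at the filter level of 1. Krt8 and Itgb4 are the genes whose groups do not overlap, and wild-type replicate 1 (triangle) is the lowest library for Krt8, Krt18, Krt19, Krt7 and Krt15.

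Krt8, the type II chain of the simple epithelial pair, had 491, 619 and 561 FPKM in knockout replicates 7, 8 and 10 and 294, 371 and 426 FPKM in wild-type replicates 1, 5 and 6. The lowest knockout library lay above the highest wild-type library. Krt8 averaged 557 ± 64.2 FPKM in knockout and 364 ± 66.3 FPKM in wild type (SD, n = 3 each), so that the ratio of means was 1.53. The difference in log2 was 0.62 (SE 0.19), and the limma adjusted p was 0.316. An exact permutation test (two-sided) gave 0.1, below which this design cannot go. Without wild-type replicate 1 the log2 fold change was 0.48 (limma adjusted p = 0.183), and with library weights 0.57 (limma adjusted p = 0.0429).

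Krt18, its type I partner, had 403, 524 and 446 FPKM in knockout libraries and 260, 375 and 444 FPKM in wild-type libraries. Wild-type replicate 6 lay level with knockout replicate 10, so the groups overlapped. The log2 fold change was 0.37 (SE 0.23, limma adjusted p = 0.538), and 0.16 without wild-type replicate 1. The ratio of Krt8 to Krt18 was 1.22, 1.18 and 1.26 in knockout libraries and 1.13, 0.991 and 0.960 in wild-type libraries. The lowest knockout ratio lay above the highest wild-type ratio. An exact two-sided permutation test gave p = 0.1, the smallest possible with 3 libraries a group, or 0.15 after Benjamini-Hochberg adjustment over 3 ratios. The ratio of Krt19 to Krt18 gave p = 0.9 in the same exact permutation test (0.9 adjusted). These ratios were chosen after values of these genes had been seen.

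Krt19, the simple keratin that lacks the usual tail domain, had 433, 477 and 404 FPKM in knockout libraries and 215, 425 and 458 FPKM in wild-type libraries. Apart from wild-type replicate 1 the libraries of both genotypes lay in one range. The log2 fold change was 0.33 (SE 0.30, limma adjusted p = 0.693), and it turned to -0.015 without wild-type replicate 1. Krt7, a type II keratin of secretory and alveolar epithelium, had 187, 192 and 176 FPKM in knockout libraries and 110, 150 and 188 FPKM in wild-type libraries. The groups overlapped, with a log2 fold change of 0.34, a standard error of 0.20 and a limma adjusted p of 0.513. Without wild-type replicate 1 its log2 fold change was 0.14. The sum of the 4 simple keratins was 1512, 1811 and 1586 FPKM in knockout libraries and 879, 1321 and 1516 FPKM in wild-type libraries, with an exact two-sided permutation p of 0.2. Wild-type replicate 1 had the lowest sum, and knockout replicate 7 and wild-type replicate 6 were nearly equal. That library was also the lowest in club cell markers, as given above, and the part of cell composition in these values was not tested. In such sorted samples fewer cells of a type and less RNA per cell cannot be told apart.

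**Figure D2:**
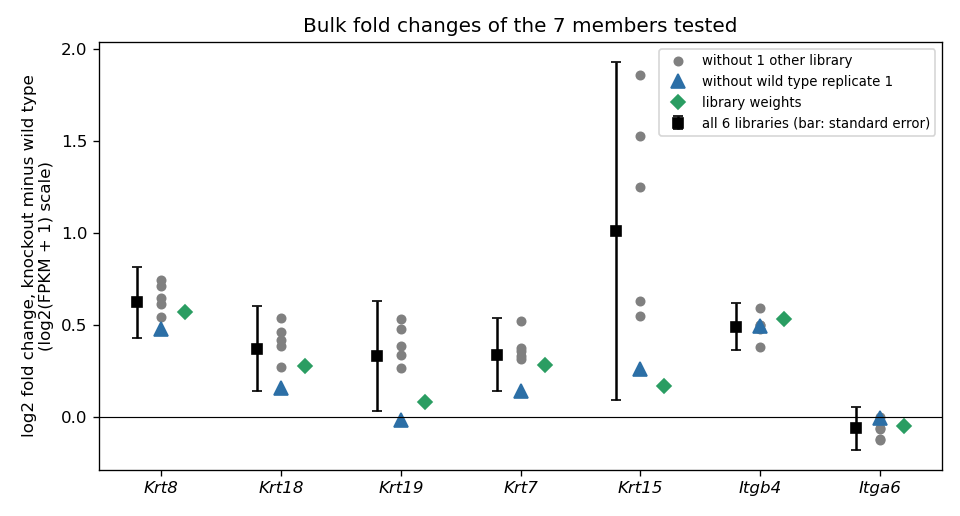
Log2 fold change of the 7 tested genes in bulk, knockout minus wild type on the log2(FPKM + 1) scale, with all 6 libraries (square, bar of 1 standard error), without 1 library (circles, triangle for wild-type replicate 1) and with library weights (diamond). Krt8 and Itgb4 keep positive values of 0.38 or more in every setting shown, while Krt19 is at -0.015 without wild-type replicate 1.

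The basal keratins were low. Krt5, the type II keratin of basal cells, was listed at 0.01, 0.353 and 0.314 FPKM in knockout libraries and at 0.0335, 0.180 and 0.180 FPKM in wild-type libraries. Krt14, its type I partner, was at 0.01 in all 3 knockout libraries, the lowest value of the table, and at 0.01, 0.01 and 0.215 in wild-type libraries. Both genes were therefore under 1 FPKM in all 6 libraries and were not tested. Krt15, a type I keratin of basal cells, was the exception in level. It had 2.01, 17.6 and 15.5 FPKM in knockout libraries and 0.702, 8.88 and 5.72 FPKM in wild-type libraries. Its values varied more within each genotype than between them, with knockout replicate 7 and wild-type replicate 1 lowest, and its log2 fold change was 1.01 (SE 0.92, limma adjusted p = 0.695). Without wild-type replicate 1 its log2 fold change was 0.26, and without knockout replicate 7 it was 1.86 (limma adjusted p = 0.589). Krt15 was lowest in the 2 libraries that were also lowest in 8 markers of upper airway secretory cells, whose summed FPKM was 20080, 40262 and 32307 in knockout libraries and 3406, 41674 and 44466 in wild-type libraries. The part of these cells in the Krt15 values was not tested.

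Other defining markers of basal cells were low as well. Trp63, the transcription factor that defines basal cells, was at 0.01, 0.235 and 0.178 FPKM in knockout libraries and at 0.132, 0.127 and 0.01 FPKM in wild-type libraries. Ngfr, a basal cell surface receptor, stayed at or below 0.0488 FPKM in knockout libraries and at or below 0.0419 FPKM in wild-type libraries. Of the 10 basal markers 4 could be tested and 0 were called (0 also at an unadjusted p under 0.05). Among those tested were Fgfr2, Aqp3 and Pdpn, which other lung cells also express. The summed FPKM of the 10 was 133 to 156 in knockout libraries and 167 to 253 in wild-type libraries, most of it from Fgfr2.

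Itgb4, the chain found only in α6β4, had 9.70, 11.6 and 8.38 FPKM in knockout libraries and 6.77, 6.58 and 6.78 FPKM in wild-type libraries. All 3 knockout libraries lay above the wild-type libraries, which were close together. Itgb4 averaged 9.91 ± 1.64 FPKM in knockout and 6.71 ± 0.110 FPKM in wild type (SD, n = 3 each), a ratio of 1.48. The log2 fold change was 0.49 (SE 0.13, limma adjusted p = 0.308), the exact two-sided permutation p was 0.1, and without wild-type replicate 1 the log2 fold change was 0.50. Galk1, a galactose kinase gene listed at the same locus in a row of its own, had 43.7, 55.2 and 46.1 FPKM in knockout libraries and 49.1, 46.4 and 55.3 FPKM in wild-type libraries, with overlap. Itga6, the chain that pairs with β4 or β1, had 6.76, 6.18 and 5.58 FPKM in knockout libraries and 7.11, 6.52 and 5.85 FPKM in wild-type libraries. The groups overlapped, with a log2 fold change of -0.06, a standard error of 0.12 and a limma adjusted p of 0.871, and without wild-type replicate 1 its log2 fold change was -0.0039. The ratio of Itgb4 to Itga6 was 1.43, 1.88 and 1.501 in knockout libraries and 0.951, 1.01 and 1.16 in wild-type libraries, again without overlap (exact two-sided permutation p = 0.1, or 0.15 adjusted over the 3 ratios). It carries the uncertainty of both table rows.

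Per length, as FPKM gives it, the levels in knockout libraries ran from Krt8 through Krt18, Krt19, Krt7, Krt15, Itgb4 and Itga6 to Krt5 and Krt14. Krt8 was above Krt18 and Krt19 in each knockout library, whereas Krt18 and Krt19 changed places between libraries. In wild-type libraries the ranges of Krt8, Krt18 and Krt19 overlapped, and Krt8 and Krt18 averaged 364 and 360 FPKM. Krt15, Itgb4 and Itga6 overlapped in range in wild-type libraries, and Krt15 also overlapped both integrin chains in knockout libraries.

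The genes around them in the filament and adhesion machinery showed no calls in bulk. Of 19 other keratins 5 were tested, 0 were called and 1 was at an unadjusted p under 0.05, with a median log2 fold change of -0.13. That gene was Krt80, an epithelial type II keratin, at 12.7, 19.03 and 11.8 FPKM in knockout libraries and 6.50, 7.19 and 8.62 FPKM in wild-type libraries. It did not overlap between genotypes (log2 fold change 0.86, limma adjusted p = 0.288, and 0.78 without wild-type replicate 1). Of the 5 tested keratins of this list, 1 did not overlap with knockout higher, against 9.04% of all tested genes. With knockout lower, 0 did not, against 10.2%. Krt23, a type I keratin and the strongest of the other keratins, had 66.2, 81.9 and 65.2 FPKM in knockout libraries and 84.6, 87.3 and 79.4 FPKM in wild-type libraries. Krt79 was under 2.5 FPKM in each library. Of 16 genes of hemidesmosomes and laminins 11 were tested, with a median of -0.14, 0 called and 2 lower at an unadjusted p under 0.05. These were Bcam, a laminin receptor (147, 150 and 157 FPKM in knockout, 266, 178 and 200 FPKM in wild type), and Lamb2, a laminin chain (35.05, 35.7 and 34.0 FPKM in knockout, 57.4, 41.6 and 38.7 FPKM in wild type). Dag1, the laminin receptor dystroglycan, did not overlap either, at 65.2 FPKM or less in knockout and at 66.8 FPKM or more in wild type. The log2 fold changes were -0.48 for Bcam, -0.36 for Lamb2 and -0.41 for Dag1, and without wild-type replicate 1 they were -0.31, -0.19 and -0.20. Of the 11 tested genes of this list 5 were positive and 6 negative. With knockout lower, 3 of the 11 did not overlap, against 10.2% of all tested genes. With knockout higher, 0 did not, against 9.04%.

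Of 14 other integrin chains 10 were tested, with a median of -0.06, 0 called and 1 lower at an unadjusted p under 0.05, the leukocyte chain Itgb7, which was under 1.6 FPKM throughout. Itga9 had 10.2, 11 and 8.64 FPKM in knockout libraries and 36.3, 11.1 and 13.8 FPKM in wild-type libraries. Of 14 desmosome and cytolinker genes 11 were tested, 7 of them positive, with a median of 0.13, 0 called and 2 higher at an unadjusted p under 0.05. These were the desmosomal genes Pkp2 (21.3, 21.6 and 22.5 FPKM in knockout, 16.9, 17.4 and 19.9 FPKM in wild type) and Dsg2 (17.9, 17.1 and 16.9 FPKM in knockout, 12.7, 15.9 and 14.1 FPKM in wild type). Neither overlapped between genotypes, and their log2 fold changes were 0.26 and 0.27. With knockout higher, 2 of the 11 tested genes did not overlap, against 9.04% of all tested genes. With knockout lower, 1 of the 11 did not, against 10.2%. Of 9 other intermediate filament genes 5 were tested and 0 were called. Vim, the filament of mesenchymal cells, had 4.64, 4.11 and 4.69 FPKM in knockout libraries and 8.19, 7.22 and 7.37 FPKM in wild-type libraries (log2 fold change -0.65, limma adjusted p = 0.190). Without wild-type replicate 1 Vim fell by 0.60 on the log2 scale (limma adjusted p = 0.0422).

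Krt8 is also known as a marker of transitional cells that arise in injured alveoli, and 18 genes of that state were listed. All 18 were tested, 15 were positive, against 51.5% of all tested genes, and the median log2 fold change was 0.44, with 0 called. At an unadjusted p under 0.05, 5 were higher and 2 lower, where 842 and 724 of the 11957 tested genes were. Cldn4, a tight junction gene, had 25.2, 23.3 and 21 FPKM in knockout libraries and 10.3, 14.1 and 14.5 FPKM in wild-type libraries (limma adjusted p = 0.222, and 0.0229 without wild-type replicate 1). Plaur, the urokinase receptor, had 6.53, 16 and 9.56 FPKM in knockout libraries and 4.67, 3.39 and 3.97 FPKM in wild-type libraries. Cdkn1a, a direct p53 target that is also on this list, had 19.6, 21.3 and 18.0 FPKM in knockout libraries and 37.6, 40.02 and 63.9 FPKM in wild-type libraries. Its log2 fold change was -1.18 (limma adjusted p = 0.203), and -1.32 without wild-type replicate 1 (limma adjusted p = 0.0184). The genotypes did not overlap for 5 of the 18 genes with knockout higher, against 9.04% of all tested genes, and for 2 with knockout lower, against 10.2%. Without wild-type replicate 1, 2 of the list were called higher and 1 lower, where 344 and 63 of 11795 tested genes were.

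Markers of other cell types also differed in level between these libraries. Of 16 ciliated cell genes, 16 were tested and 16 positive, against 51.5% of all tested genes, with a median log2 fold change of 1.35. With all libraries 0 were called, and without wild-type replicate 1, 15 were called higher, where 2.92% of all tested genes were. Their summed FPKM was 610, 823 and 446 in knockout libraries and 513, 150 and 153 in wild-type libraries. Of 11 alveolar type 2 genes tested 11 were negative, where 51.5% of all tested genes were positive. Negative as well were 9 of 9 tested immune genes, whose summed FPKM was 112 to 144 in knockout and 180 to 197 in wild type. By limma 0 of the alveolar type 2 genes were called with or without wild-type replicate 1, and 3 were lower at an unadjusted p under 0.05 with all libraries. For 6 of these 11 genes the genotypes did not overlap, with knockout lower, against 10.2% of all tested genes. The genotypes did not overlap for any of the 9 immune genes, with knockout lower for all 9, against 10.2% of all tested genes. All 9 were lower at an unadjusted p under 0.05, where 724 of 11957 tested genes were. By limma 0 of the 9 were called, and 4 were called lower without wild-type replicate 1, where 63 of 11795 tested genes were. The part of these cell types in the keratin and integrin values was not tested.

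In the single cells, the simple keratins were widespread and Krt5 and Krt14 stayed under a TPM of 1 in all kept cells. Krt18 was detected in 57 of 61 cells labelled knockout and 57 of 66 wild-type cells, and Krt8 in 55 and 47. Krt19 followed in 48 of 61 and 38 of 66 cells, and Krt7 in 36 of 61 and 24 of 66 cells. Krt15 was found in 5 of 61 and 10 of 66 cells, Itga6 in 6 and 4, and Itgb4 in 2 and 3. For Krt5 and Krt14, taking 3 cells as the limit that a count of 0 allows, 0 of 61 cells labelled knockout allows a share of up to 4.92% of cells with the transcript detected, and 0 of 66 wild-type cells up to 4.55%. Trp63 was likewise in 0 of 61 and 0 of 66 cells. Other basal markers were found: of the 10 listed, 5 were detected in any cell labelled knockout and 6 in any wild-type cell. In at least 30% of cells, 3 and 2 of the 10 were detected. Any of the 10 was detected in 57 of 61 cells labelled knockout and 55 of 66 wild-type cells. With 1 chip per genotype there is no replicate, so no test was made, and the exact binomial (Clopper-Pearson, 95%) intervals given with the shares below cover counting error only.

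Cells were split by their dominant lung transcript. In 15 cells labelled knockout and 17 wild-type cells Sftpc, which encodes surfactant protein C of alveolar type 2 cells, exceeded Scgb1a1 (Sftpc-dominant), and in 46 and 49 cells it did not (Scgb1a1-dominant). Of the 127 cells, 21 had the 2 transcripts within 4-fold of each other, 15 of them labelled knockout. Scgb1a1 was detected in all 127 cells, and Sftpc in 60 of 61 cells labelled knockout and 63 of 66 wild-type cells, so the split cuts a range and does not define cell types. Detected genes per cell had medians of 3196 and 2633 in Sftpc-dominant cells labelled knockout and wild type, and of 3824 and 3154 in Scgb1a1-dominant cells.

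**Figure D3:**
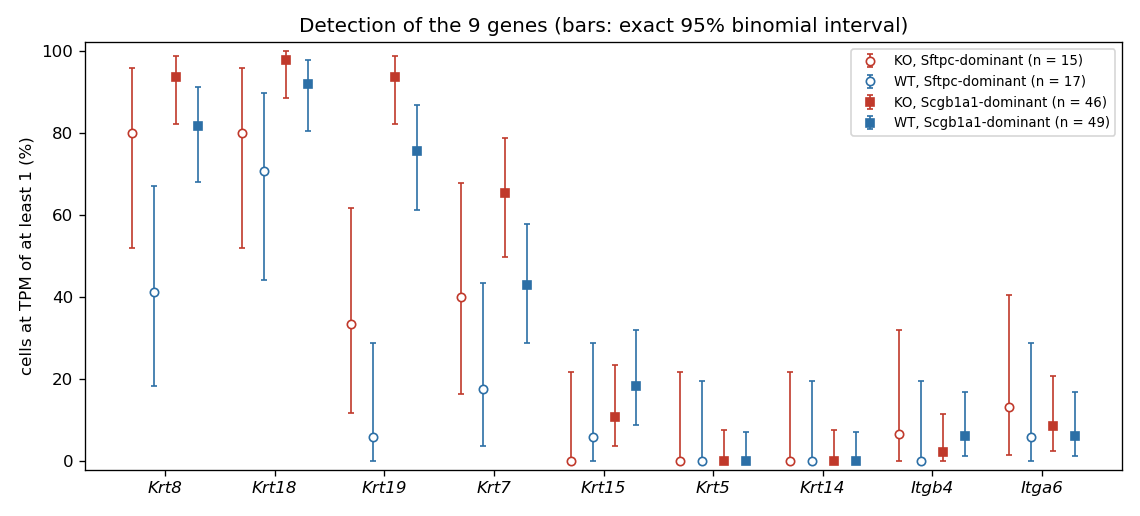
Percent of cells with each of the 9 genes at a TPM of at least 1, by genotype label and dominant transcript, with exact 95% binomial intervals. Krt8, Krt18, Krt19 and Krt7 have their highest points in Scgb1a1-dominant cells, and Krt5 and Krt14 are at 0 in all 4 groups.

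Krt19 separated the states most. In the chip labelled knockout it was detected in 5 of 15 Sftpc-dominant cells (33.3%, interval 11.8% to 61.6%) and in 43 of 46 Scgb1a1-dominant cells (93.5%, 82.1% to 98.6%). In the wild-type chip it was detected in 1 of 17 Sftpc-dominant cells (5.88%, 0.149% to 28.7%) and in 37 of 49 Scgb1a1-dominant cells (75.5%, 61.1% to 86.7%). Most Sftpc-dominant cells thus had no detected Krt19 on either chip. Its mean log2(TPM + 1) was 2.01 in Sftpc-dominant and 6.21 in Scgb1a1-dominant cells labelled knockout, a difference of -4.20, and 0.48 and 4.78 in wild-type cells, a difference of -4.30. Restricted to cells with at least a 4-fold gap between Sftpc and Scgb1a1, the differences were -3.77 and -4.84.

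Krt18 and Krt8 were lower in Sftpc-dominant cells by less, and were still detected in many of them. Krt18 was detected in 12 of 15 Sftpc-dominant and 45 of 46 Scgb1a1-dominant cells labelled knockout, and in 12 of 17 and 45 of 49 wild-type cells, with log2 differences of -2.59 and -2.07. Krt8 was detected in 12 of 15 and 43 of 46 cells labelled knockout, and in 7 of 17 and 40 of 49 wild-type cells, with differences of -1.08 and -2.41. Krt7 was detected in 6 of 15 and 30 of 46 cells labelled knockout, and in 3 of 17 and 21 of 49 wild-type cells, with differences of -0.98 and -1.14. The size rule asks for a difference of at least 1 on the log2(TPM + 1) scale with detection in at least 30% of the higher group, a detection share that 4 of the 9 genes reached on each chip. Of these 4, 3 were lower in Sftpc-dominant cells of the chip labelled knockout, where 19.8% of 5207 genes were, and 0 were higher, where 8.03% of genes were. On the wild-type chip all 4 were, where 21.6% of 3989 genes were, and 0 were higher, against 8.27%. The remaining 5 genes did not reach 30% of cells in either state. With at least 2500 detected genes per cell the wild-type Krt18 difference was -0.48, and with states set by other marker genes the Krt7 difference turned to 0.03 on the chip labelled knockout.

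**Figure D4:**
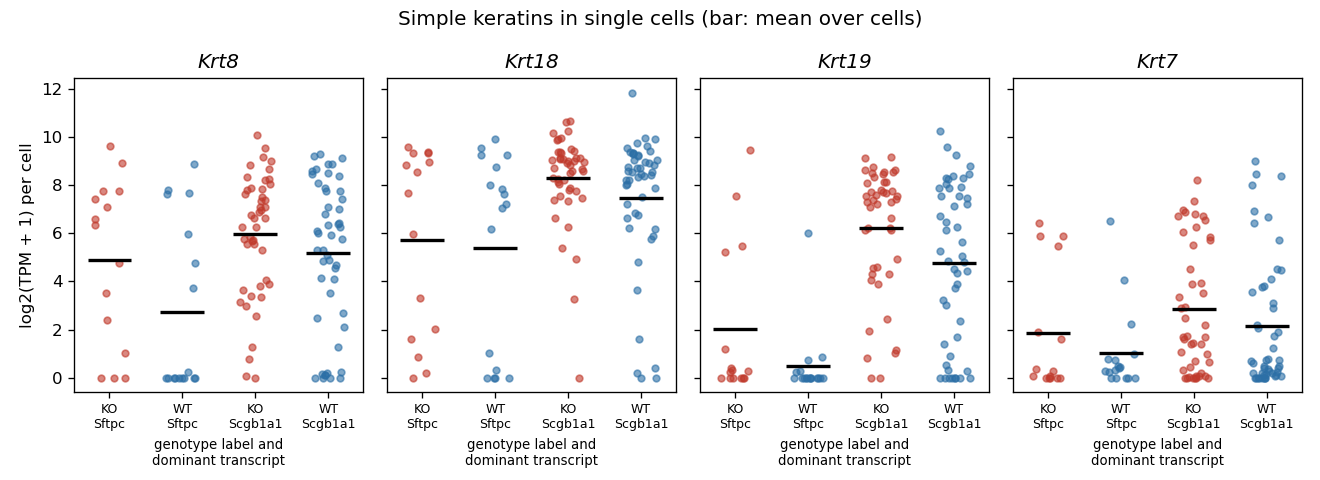
Log2(TPM + 1) of Krt8, Krt18, Krt19 and Krt7 in each kept cell, by genotype label and dominant transcript, with a bar at the mean over cells. Krt19 is near 0 in most Sftpc-dominant cells, where its means are 2.01 (labelled knockout) and 0.48 (wild type), against 6.21 and 4.78 in Scgb1a1-dominant cells.

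Scgb1a1-dominant cells were split further by Scgb3a1, a secretory gene of the upper airways, at a TPM of 100, which gave 33 and 13 cells labelled knockout and 23 and 26 wild-type cells (high and low). Of these 95 cells 15 lay between TPM 10 and 1000. Krt19 was higher in Scgb3a1-high than in Scgb3a1-low cells, by 1.62 among cells labelled knockout and 1.78 among wild-type cells, and Krt18 by 1.17 and 1.86. Krt8 differed by 2.47 among cells labelled knockout and by 0.37 among wild-type cells. Its median TPM was 136 in Scgb3a1-high and 15.6 in Scgb3a1-low cells labelled knockout, and 66.6 and 36.2 in wild-type cells. Krt7 differed by 0.35 and 0.30, below the size rule. The rule took 3 of the 4 genes that reached the detection share on the chip labelled knockout, where 16.5% of genes were higher in Scgb3a1-high cells, and 2 on the wild-type chip, where 13% were. Of these 4 genes 0 were lower in Scgb3a1-high cells on either chip, against 8.71% of genes on the chip labelled knockout and 6.34% on the wild-type chip. With at least 2500 detected genes per cell, Krt8 turned to -0.38 and Krt18 was at 0.68 on the wild-type chip. The difference of Krt8 between the chips was not tested.

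Between the chips, Krt8 and Krt19 had higher means in cells labelled knockout than in wild-type cells by the size rule. Krt8 had a mean log2(TPM + 1) of 5.71 ± 2.80 in cells labelled knockout and 4.54 ± 3.37 in wild-type cells (SD over 61 and 66 cells), a difference of 1.16. Krt19 had 5.18 ± 3.31 in cells labelled knockout and 3.67 ± 3.5 in wild-type cells, a difference of 1.51. Krt18 (7.66 in cells labelled knockout and 6.94 in wild-type cells) and Krt7 (2.60 and 1.87) differed by 0.72 and 0.73, below the rule. These are 2 of the 4 genes that reached the detection share, beside 16.8% of 4401 genes that were higher and 0.250% that were lower by the same rule, with a median difference of 0.44 over those genes. Cells labelled knockout had more detected genes (median 3580, against 3130.5 in wild-type cells) and a smaller share of TPM in ERCC spike-ins (median 6.28%, against 13.2%). With a pseudocount of 10 in place of 1, none of the 9 genes was past the rule.

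Within states, Krt19 was past the rule in both and Krt8 in one. Among Sftpc-dominant cells Krt8 differed by 2.14 and Krt19 by 1.53, where 27.8% of genes were higher. Among Scgb1a1-dominant cells Krt19 differed by 1.43, where 17.2% were. The Sftpc-dominant cells were not alike on the chips: their median Scgb1a1 TPM was 35294 for cells labelled knockout and 610 for wild-type cells. The part of this in the differences was not tested. By the same rule 0 of the 4 genes that reached the detection share were lower in either state, against 3.83% of genes among Sftpc-dominant and 0.405% among Scgb1a1-dominant cells. Krt8 was detected in 80% of Sftpc-dominant cells labelled knockout (51.9% to 95.7%) and in 41.2% of Sftpc-dominant wild-type cells (18.4% to 67.1%). These intervals overlapped. Among cells with at least 2500 detected genes, the Krt8 difference over all cells was 0.51, while that of Krt19 was 1.79. Krt18 turned to -0.11 over all cells and to -1.60 among Sftpc-dominant cells in that setting, which held 11 Sftpc-dominant cells labelled knockout and 10 wild-type ones. Mean TPM, which weights the highest cells, was 29.01 in cells labelled knockout and 31.2 in wild-type cells for Krt7, against the direction of its log2 mean. For Krt8 mean TPM was 165 in cells labelled knockout and 123 in wild-type cells, for Krt18 445 and 386, and for Krt19 149 and 108.

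The pair partners Krt8 and Krt18 were usually found together. Both were detected in 52 of 61 cells labelled knockout, Krt8 alone in 3, Krt18 alone in 5 and neither in 1. Of 66 wild-type cells 47 had both, 0 had Krt8 alone, 10 had Krt18 alone and 9 had neither. Krt18 had the higher TPM in most cells with both, in 37 of 43 Scgb1a1-dominant cells labelled knockout and 32 of 40 wild-type ones, with median ratios of Krt8 to Krt18 of 0.283 and 0.327. In Sftpc-dominant cells it was higher in 5 of 9 cells labelled knockout and in 7 of 7 wild-type cells. In the bulk libraries, by contrast, Krt8 was above Krt18 in FPKM in 4 of 6 libraries. The 2 data sets were made with different tools and normalized separately, and this difference in order was not tested.

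**Figure D5:**
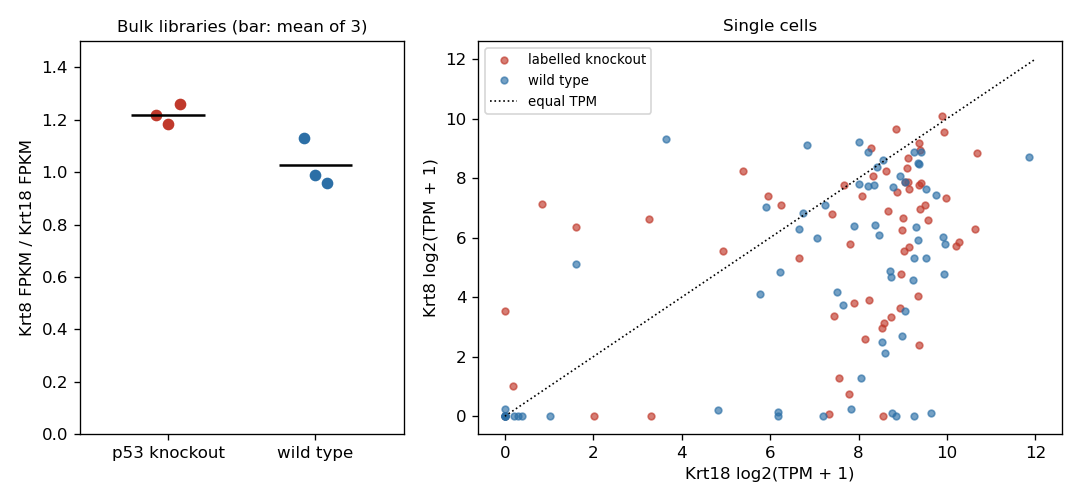
Left, the ratio of Krt8 to Krt18 FPKM in each bulk library, with a bar at the mean of 3. Right, log2(TPM + 1) of Krt8 against Krt18 in each kept cell, with the line of equal TPM; most cells with both transcripts lie below the line, with more Krt18 than Krt8.

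All 4 simple keratins were detected in 30 of 61 cells labelled knockout and 14 of 66 wild-type cells, and none in 1 and 5 cells. Cells with all 4 had a median of 4040 detected genes, and cells with none a median of 2357. The number of keratins seen thus moved with the number of detected genes. Across the 127 cells, after centring within genotype and state, Krt8 was most like Krt18 (Pearson r = 0.46), Ywhae (0.43) and Mdh2 (0.41). Krt18 was most like S100a11 and Cox4i1 (0.56 each) and Cox6c (0.50), Krt19 most like S100a6 (0.47), Gipc2 (0.46) and Gsto1 (0.45), and Krt7 most like Tbc1d20 (0.44), Rac2 (0.37) and Tjp3 (0.36). These values are descriptions over cells that share a chip and differ in the number of detected genes. The log of detected genes itself correlated with Krt18 at 0.52, with Krt8 at 0.41, with Krt19 at 0.18 and with Krt7 at 0.12.

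Krt15 was rare and uneven. Its 5 cells labelled knockout were all Scgb1a1-dominant and Scgb3a1-high, at TPM 1.21, 2.03, 8.50, 182 and 374. Of its 10 wild-type cells 3 were Scgb3a1-high (TPM 1.21, 17.4 and 177), 6 Scgb3a1-low (3.10 to 347) and 1 Sftpc-dominant (1.53). High Krt15 cells thus occurred on both chips, and all 15 cells also had Krt8 detected. Itga6 was at TPM 5.03 to 113 in 6 cells labelled knockout and 2.55 to 93.5 in 4 wild-type cells, and Itgb4 at 2.28 and 10.8 in 2 cells labelled knockout and 3.96 to 10.5 in 3 wild-type cells. No kept cell had both integrin chains detected. With so few cells holding either chain, their pairing within cells cannot be read here. Of the related genes, Krt23 was in 32 of 61 cells labelled knockout and 21 of 66 wild-type cells, Krt80 in 4 and 2, and Col17a1, a hemidesmosome collagen, in 0 and 0.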

How the data were processed

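The authors' deposited bulk values are FPKM (the submitters' processing notes name TopHat, Bowtie2, Cufflinks and mm10), from single reads of 75 nucleotides; the lowest deposited FPKM is 0.01, and 12 genes with 20 entries marked in place of a value were left out. The authors' deposited single-cell values are TPM (the same notes name GRCm38, Bowtie 1.1.1 and RSEM 1.2.20), in 1 table per genotype. Neither unit retains reads, which leaves depth unknown and count models unusable.

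Bulk values were tested as log2(FPKM + 1) with limma 3.58.1 (two-sided, R 4.3.3, robust eBayes with a trend, Benjamini-Hochberg adjustment over 11957 genes, threshold 0.05), for genes reaching 1 FPKM in 3 or more libraries. On this scale the change of low genes is understated. The labels do not state separate animals, and the p-values then cover only library-to-library spread, possibly technical. Exact permutation tests used scipy 1.17.1. The limma step and the size rule were run on simulated normal values with large shifts, as a check of the code only.

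Cells were kept with at least 1000 genes at a TPM of at least 1, which dropped 3 cells labelled knockout and 6 wild-type cells; wells with a debris or valve remark (3 and 1) and off-chip controls were left out, and 2 samples labelled knockout have no column. The labels' protocol describes visual removal of doublet and debris wells; no doublet caller was added here. Means are of log2(TPM + 1), with no test. Groups follow the labels, and states follow Sftpc, Scgb1a1 and Scgb3a1. The 9 genes, the lists and the states were chosen with earlier results of these data known. Of each further list, up to 3 genes of smallest unadjusted bulk p may be named; Trp63, Ngfr and Col17a1 were chosen after their values were seen. Alternatives were pseudocounts, filters, rescaling, library weights, other state rules and leaving out each library.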

Additional observations from a re-analysis of the deposited data

Results flagged for a closer look

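Several wells and controls that entered no comparison held keratin transcripts above the off-chip negative control, in which Krt8 was at 0.05 TPM, Krt18 at 0.07 TPM and the other 7 genes at 0. The off-chip positive control of the chip labelled knockout, with 7953 detected genes, had TPM values of 12.0 for Krt7, 91.9 for Krt8, 14.7 for Krt15, 115 for Krt18 and 120 for Krt19, with Krt5 and Krt14 at 0.

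Of the 3 wells labelled knockout with a debris or valve remark, the first had TPM values of 301 for Krt8, 380 for Krt18 and 175 for Krt19. The second had 44.6 for Krt7, 39.5 for Krt8, 386 for Krt15, 48 for Krt18 and 255 for Krt19, a Krt15 level above that of every kept cell. The third had 194 for Krt8, 1073 for Krt18, 32.4 for Krt19 and 2.20 for Itgb4. The wild-type well with such a remark had 160 for Krt7, 56.9 for Krt8, 909 for Krt18 and 163 for Krt19. Krt5 and Krt14 stayed below a TPM of 1 in these wells as well.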

How the results depend on the processing

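Differences between cells that were past the size rule before any change of settings kept their sign in every setting tried. Of the bulk fold changes of the 7 tested genes 1 reversed: Krt19 ranged from -0.015 without wild-type replicate 1 to 0.53 without wild-type replicate 6. In bulk, the number of genes past the threshold was 2 with a pseudocount of 0.1, 3 without the filter, 3 after rescaling to the same summed FPKM (2 higher and 1 lower), 913 with library weights, and 0 to 407 with 1 library left out, 407 being without wild-type replicate 1. The number of the 9 genes past it was 2 with library weights and 0 in all other settings, and their median log2 fold change ranged from 0.16 to 0.53 with 1 library left out. Between the chips, 124 genes were past the size rule with a pseudocount of 10, 1672 with 0.1 and 410 with at least 2500 detected genes per cell, against 751. Of the 9 genes, 0 were past it over all cells with a pseudocount of 10 and 1 with at least 2500 detected genes. Among Sftpc-dominant cells these settings gave 1 and 4. Of these 4, 3 were higher in cells labelled knockout, while Krt18 was lower, at -1.60. Among Scgb1a1-dominant cells a pseudocount of 10 gave 0, a pseudocount of 0.1 gave 3 and no minimum of detected genes gave 2. Between Scgb3a1-high and Scgb3a1-low wild-type cells, a pseudocount of 10 gave 1 and at least 2500 detected genes gave 1. The cause was not tested. Rescaling without ERCC rows, Scgb1a1 and Sftpc was added after the data were seen. No paired analysis was possible because the knockout and wild-type libraries share no replicate number and each chip is 1 sample.

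The limits are the 3 libraries a group, 1 of which stands apart, and 1 chip per genotype with unequal numbers of detected genes. Trp53 detection also goes against the chip labels. Bulk values of Itga6 and Itgb4 rest on table loci that span other genes, and the integrin chains were detected in few cells.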
